A study of Oryza sativa with 2 samples.

Results

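The cytochrome P450 genes of rice were examined for peaks of OsbHLH002, a basic helix-loop-helix transcription factor. They were taken as the genes of the deposited peak list whose description contains the words cytochrome P450, leaving out LOC_Os05g25640. This gave 91 of 14709 genes, on 88 of 12487 distinct peaks, and the choice used descriptions and no measured value. The study asked where OsbHLH002 sits on the genome, in plants of the Osbhlh002-1 mutant that carried gOsbHLH002-3FLAG, a genomic copy of the gene with a FLAG epitope tag. Chromatin pulled down by its FLAG tag (the IP, 1 library) was set against its input (1 library), both from the same transgenic line. The sources used here name neither the tissue nor the age of the plants, and no untagged plant was analysed here. With 1 IP there was no replicate, so the differences below have no replicate check and no p-value of their own.

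Cytochrome P450 enzymes are haem proteins that insert oxygen into small molecules, and plants have very many of them. They carry out hydroxylation steps in the synthesis and breakdown of hormones such as brassinosteroids, gibberellins, abscisic acid and jasmonate. They also act in the phenylpropanoid pathway, which feeds lignin into secondary cell walls, and in the making of flavonoids, carotenoids, fatty acid derivatives and defence compounds. Many of their genes lie side by side in the genome as tandem copies. In families of such copies, sequencing reads from near-identical stretches can be split or lost in alignment. No alignment filter is given in the sources used here. The part of shared reads in the values of neighbouring copies was not tested.

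P450 genes had peaks of ordinary median strength but few strong ones. The fold enrichment of a peak is the authors' ratio of the IP signal to its local background, taken at the summit, the point of highest signal. Its median over the 91 genes was 3.07 (quartiles 2.57 and 3.86), beside 3.13 (quartiles 2.57 and 4.11) over all genes in the list. A fold of at least 5 was reached by 3 of 91 P450 genes (3.3%), where 14.0% of all genes in the list reached it. The highest P450 fold was 7.75 and none reached 12, which 0.965% of all genes did. No P450 peak was 2000 bp or wider, where 2.16% of all genes had such a peak. At overall shares as low as these, the lack of any such gene among 91 says little. At a fold of at least 4 the counts were 20 of 91 P450 genes (22.0%), beside 27.6% of all genes, and at a fold of at least 6 they were 1 of 91 (1.1%), beside 7.54%.

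The counts behind these peaks were small. For all 88 peaks, the deposited fold and p fixed a single whole number of IP fragments at the summit. Over the 91 genes it ran from 10 to 47 with a median of 17, beside a median of 20 over all genes. The local background had a median of 4.72 fragments, beside 5.19 over all genes. For 42 of 91 P450 genes (46.2%) the background stood at 4.44 fragments, the genome-wide floor, beside 25.8% of all genes. Because so many peaks shared this floor, their folds rose in steps of 1 fragment. The 88 peaks held only 60 distinct folds, and 5 peaks each had 14 fragments (fold 2.76) or 16 fragments (fold 3.13) over the floor. At counts this small, differences of several fragments between P450 genes are within counting error. By the deposited q, 85 of 91 genes (93.4%) were at 0.05 or less, beside 90.1% of all genes, and 66 (72.5%) were at 0.01 or less, beside 77.3%.

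**Figure D1:**
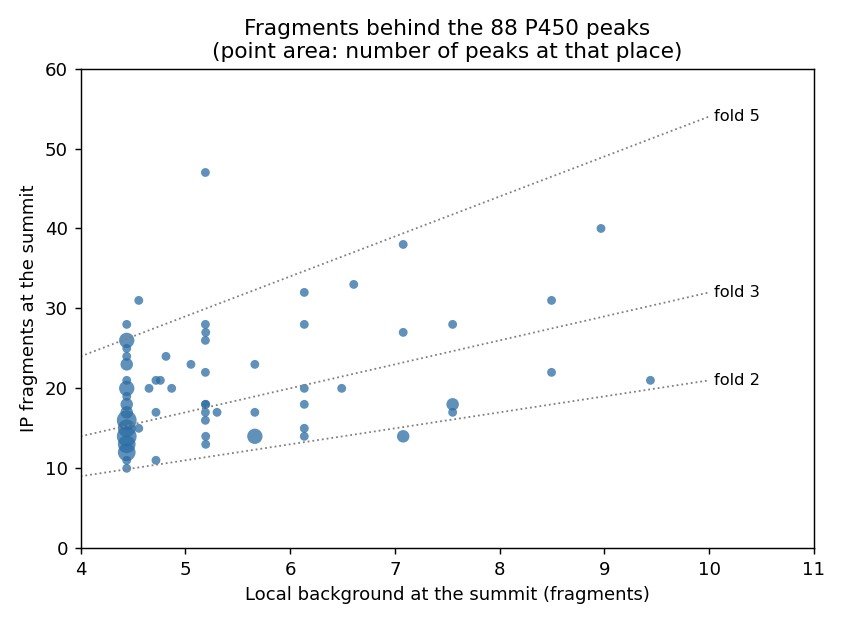
IP fragments at the summit (vertical axis) against the local background in fragments (horizontal axis) for the 88 P450 peaks, with point area showing how many peaks fall at the same place and dotted lines marking folds of 2, 3 and 5. Many peaks stack at the floor of 4.44 fragments, and the peak with 47 fragments stands apart from the rest.

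The strongest P450 peak lay inside LOC_Os03g55240 on chromosome 3 (31440748 to 31446119, plus strand). The gene was entered in the lists below, from general knowledge, as CYP81A6, an enzyme known for breaking down herbicides. Its peak ran from 31442297 to 31443065 and held 47 IP fragments over a background of 5.19. The fold was 7.75 and the −log10 q was 25.7, which ranked it 366 of 12487 peaks by fold. The summit lay 1887 bp downstream of the start of this gene of 5372 bp. Next came LOC_Os07g44140, described as P450 72A1, on chromosome 7 (26382581 to 26385011, plus strand), with 31 fragments over 4.56 and a fold of 5.76. Its peak ran from 26381421 to 26381913, and the summit was 898 bp upstream. The third was LOC_Os01g63930 on chromosome 1 (37095403 to 37099183, minus strand), with 28 fragments over 4.44, a fold of 5.33 and the summit 55 bp upstream. It was the last gene above a fold of 5.

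Just below that level, 3 genes tied at a fold of 4.96, from 26 fragments each. They were LOC_Os01g43700 (described as 72A1, summit 769 bp upstream), LOC_Os03g04660 (described as 86A1, 1712 bp upstream) and LOC_Os09g26960 (1856 bp upstream). At this background 1 more fragment would have passed the level, so the count above it rests on a narrow margin. LOC_Os04g40460 had more fragments, 38, but over a background of 7.08, and its fold was 4.83 with the summit 1204 bp upstream. LOC_Os02g57810 had 40 fragments, second only to LOC_Os03g55240, over a background of 8.97 and a fold of 4.11, with the summit 309 bp upstream. These 2 genes show that the order by fold and the order by fragments differed among P450 genes.

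Among the 20 strongest P450 genes, taken 1 per peak, 15 had the summit within 2 kb upstream of the start, and 2 more had it farther upstream. Of the 3333 peaks in the list with a fold at least as high as the lowest of these 20, 69.6% had it within 2 kb upstream. Within 250 bp of the start it was 4 of the 20, beside 35.7% of those peaks, and 1000 bp or more away it was 11 of the 20, beside 35.6%. With 20 genes these counts are a description. LOC_Os10g38110 had the summit inside the gene, 1572 bp downstream of the start, with 25 fragments and a fold of 4.78. LOC_Os06g30640 (fold 4.41, 23 fragments) had it beyond its 3′ end. The remainder of the 20 ran from a fold of 4.68 down to 4.04: LOC_Os01g43844, LOC_Os11g04710, LOC_Os07g19210, LOC_Os06g39880, LOC_Os08g39640, LOC_Os02g09250, LOC_Os05g37250, LOC_Os06g19070, LOC_Os06g15680 and LOC_Os01g43720.

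The weakest members were near background. LOC_Os01g11340 and LOC_Os12g39310 each had 14 fragments over 7.08 and a fold of 1.86. LOC_Os01g43740 had 10 fragments over 4.44 and a fold of 2.02. All 3 had a q of 0.219, so they are listed as peaks but do not stand clear of the background.

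The summits of P450 genes sat farther from gene starts than those of the list as a whole. They lay within 250 bp of the start in 24 of 91 genes (26.4%), beside 35.8% of all genes, and within 500 bp in 31 (34.1%), beside 48.4%. The median distance was 1058 bp, beside 549 bp over all genes. Within 2 kb upstream there were 47 summits (51.6%), beside 58.4% of all genes. Inside the gene there were 35 (38.5%), beside 27.1%. The remaining 5 lay past the 3′ end (5.49%, beside 9.77%), and 4 lay beyond 2 kb upstream (4.4%, beside 4.8%). Gene length was not the same in the 2 sets, with medians of 2336 bp for P450 genes and 2610 bp for all genes. Among genes of 1842 to 3440 bp, the middle range of P450 lengths, 9 of 45 P450 genes had the summit within 250 bp, beside 41.0% of all 3797 genes.

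The 24 genes with a summit within 250 bp of the start, 16 of them with it upstream, had a median fold of 3.01, beside 3.07 for all genes with such a summit. The genes of this paragraph outside the 20 strongest were picked out after their values were seen. LOC_Os01g63930 (5.33), LOC_Os06g39880 (4.52), LOC_Os06g19070 (4.30) and LOC_Os01g43720 (4.04) led them. LOC_Os02g01890 and LOC_Os11g27730 followed, both with 20 fragments over 4.44 and a fold of 3.86, at 249 and 146 bp upstream. LOC_Os07g11739 had 22 fragments over 5.19 and a fold of 3.71, at 172 bp upstream. LOC_Os12g25660 had a fold of 3.49 at 138 bp upstream. None of these last 4 genes shared its peak with another gene.

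**Figure D2:**
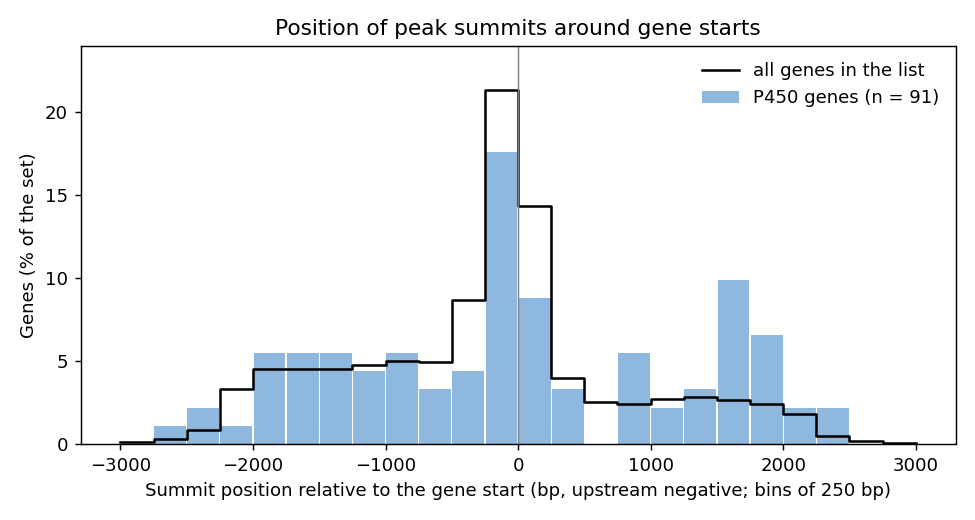
Share of genes (vertical axis, percent of the set) by position of the peak summit relative to the gene start in bins of 250 bp (horizontal axis, upstream negative), with bars for the 91 P450 genes and a line for all genes in the list. P450 genes have a lower peak at the start and a second rise between 1500 and 2000 bp downstream, where 15 genes (16.5%) lie beside 5.13% of all genes.

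Upstream summits had the higher folds. P450 summits within 2 kb upstream had a median fold of 3.49 and a median of 20 fragments. Those inside the gene had a median fold of 2.76 and 14 fragments. Over all genes in the list the same medians were 3.31 and 21 fragments upstream, and 2.76 and 17 fragments inside. Of the 38 P450 genes with 16 fragments or fewer, 65.8% had the summit inside the gene, beside 38.6% of all genes at that depth. Of the 53 with 17 fragments or more, 18.9% did, beside 21.9% of all. At this split, which falls at the P450 median of 17 fragments, the higher share of summits inside P450 genes was seen at low fragment numbers and not at higher ones. No test of this was made. LOC_Os03g55240, the strongest peak, was inside its gene.

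**Figure D3:**
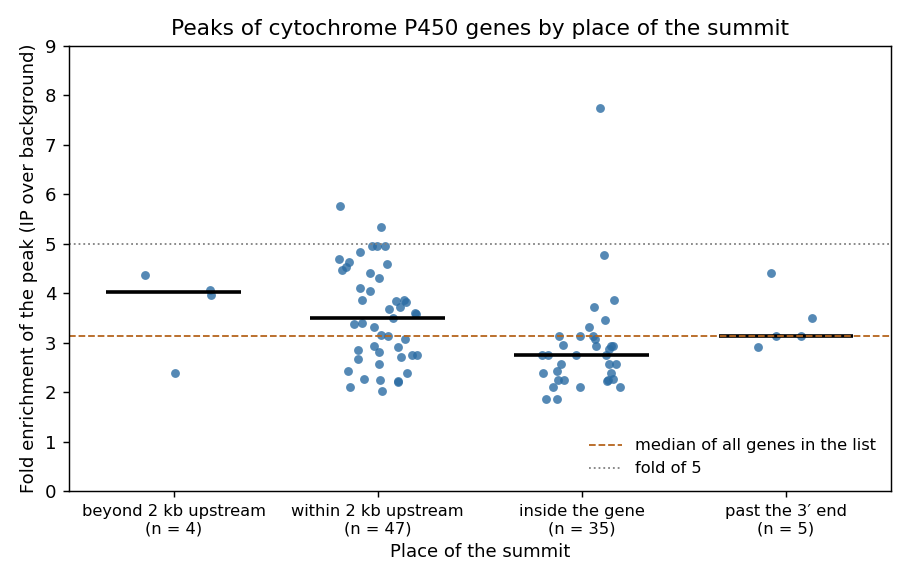
Fold enrichment (vertical axis) of the 91 P450 genes by place of the summit, with 1 point per gene, a black bar for the median of each place, a dashed line for the median of all genes in the list (3.13) and a dotted line at a fold of 5. The upstream summits have the higher median (3.49 against 2.76 inside the gene), while the single highest point, 7.75, is inside a gene.

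A set of summits inside P450 genes lay close to the 3′ end. In 9 of 91 genes (9.89%) the summit was in the last 300 bp of the gene, beside 2.16% of all genes in the list. Among genes of 1842 to 3440 bp it was 7 of 45 P450 genes (15.6%), beside 1.13% of all genes of that length. The window of 2 kb around a start reaches the 3′ end only in short genes. Among genes of 1400 to 2500 bp, all 9 were retained out of 49 P450 genes (18.4%), beside 2.95% of all genes. This region was picked after the positions were seen, and no test was made. The 9 peaks were modest, with folds from 1.86 to 3.72. LOC_Os03g12260, described as a cytochrome P450 protein, was the highest, at 3.72 with 20 fragments and the summit 259 bp before the end. LOC_Os04g03890 and LOC_Os04g01140 both had a fold of 3.13, with summits 77 and 78 bp before the end. The others were LOC_Os02g12690 (2.76), LOC_Os10g05020 and LOC_Os11g05380 (2.57 each), LOC_Os01g72270 (2.26), LOC_Os05g35010 (2.10) and LOC_Os01g11340 (1.86). Of these 9 genes, LOC_Os01g72270 and LOC_Os05g35010 shared their peak with a neighbouring gene.

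Descriptions named a P450 subfamily in 23 of 91 genes, and 14 of these were described as 72A1. The CYP72 clan, to which the description refers, includes enzymes of hormone and terpenoid metabolism. The 14 genes had a median fold of 3.01 (2.02 to 5.76), beside 3.13 for the other 77 P450 genes. Their summits lay within 2 kb upstream in 10 of 14 genes (71.4%, beside 58.4% of all genes in the list) and inside the gene in 3, while in the other 77 genes 37 lay upstream and 32 inside. Within 250 bp of the start there were 5 of 14 (35.7%), beside 35.8% of all genes. LOC_Os07g44140, LOC_Os01g43700, LOC_Os01g43844, LOC_Os06g39880 and LOC_Os01g43720 had folds above 4. LOC_Os01g41810 (3.39) and LOC_Os07g23570 (2.75) had summits 676 and 297 bp upstream. Other subfamilies were named in 1 gene each. LOC_Os02g09250 (71D10) had a fold of 4.41, LOC_Os06g15680 (71A6) 4.06 and LOC_Os06g43510 (71D6) 3.31. LOC_Os05g31740 (86A2) had 2.10 and LOC_Os03g63310 (71E1) 2.25, both below the median over all genes. The 4 genes described as CYP71 thus ran from 2.25 to 4.41, while the 86A2 and 86A1 genes stood at 2.10 and 4.96.

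Some P450 genes with a peak were neighbours. Taking starts at most 50 kb apart, 30 of the 91 genes fell into 12 groups, with 27 peaks between them: 1 group of 4 genes, 4 of 3 and 7 of 2. Their median fold was 3.10, beside 3.07 for the 61 genes outside groups. Only genes with a peak are in the list, so copies without one do not appear in these groups. No like share was computed for other genes in the list, so the count of 30 cannot be read as high or low.

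The group of 4 was a run of 72A1-described genes on chromosome 1. LOC_Os01g43700 had a fold of 4.96, from a peak at 25039546 to 25040643. LOC_Os01g43710 had 3.07, from 18 fragments over 5.19, with the summit 20 bp upstream of its start. LOC_Os01g43720 had 4.04, from 21 fragments, with the summit 62 bp upstream. LOC_Os01g43740 had the weakest peak, at 2.02, 1499 bp upstream of its start, and that peak also overlapped the window of LOC_Os01g43720. The starts of these 4 genes spanned 20.1 kb. Of the 7 peak numbers in this stretch, 3 had no gene in the list and were not analysed here. LOC_Os01g43844, also described as 72A1, lay just past the 50 kb limit with a fold of 4.68.

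The group on chromosome 3 held the strongest P450 peak between weaker ones. LOC_Os03g55230 had a fold of 3.60 (23 fragments, summit 1926 bp upstream), and LOC_Os03g55250, described as 81E1, had 3.85 (21 fragments, 1615 bp upstream). LOC_Os03g55240 between them had 47 fragments. Each gene had its own peak, with consecutive peak numbers. On chromosome 8, LOC_Os08g39640 had a fold of 4.47, LOC_Os08g39694 3.68 and LOC_Os08g39730 2.39, along a span of 53.0 kb. On chromosome 1, LOC_Os01g11280, LOC_Os01g11300 and LOC_Os01g11340 all had 14 fragments, and their folds of 2.42, 2.76 and 1.86 differed through the background. Of the 7 pairs, 5 had a peak for each gene and 2 had 1 peak for both. Among the 5, the peaks of LOC_Os01g58990, LOC_Os09g26980 and LOC_Os10g38120 were also placed on a gene of another kind. The folds differed in each of the 5, though a gap of several fragments is within counting error. LOC_Os07g44140 (5.76) lay beside LOC_Os07g44110 (2.94), LOC_Os09g26960 (4.96) beside LOC_Os09g26980 (2.86), and LOC_Os10g38110 (4.78) beside LOC_Os10g38120 (2.25). The window of LOC_Os10g38120 also held a stronger peak, of fold 3.15, placed on another gene. The gap in fold was smaller between LOC_Os01g58960 (2.39, 12 fragments) and LOC_Os01g58990 (3.13, 16 fragments), and between LOC_Os02g26770 (3.37) and LOC_Os02g26810 (2.66).

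**Figure D4:**
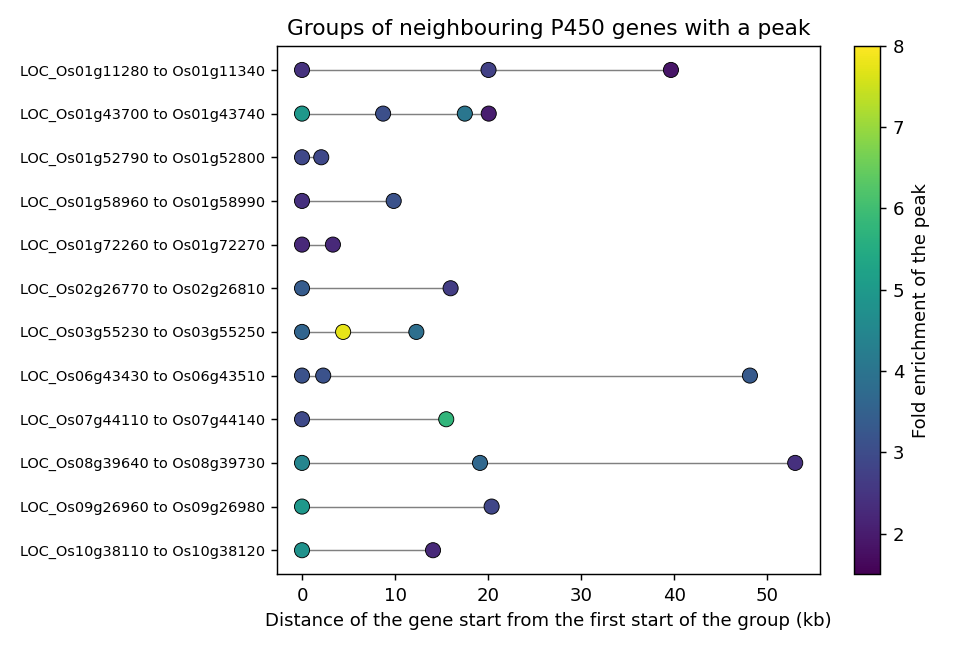
The 12 groups of neighbouring P450 genes with a peak, 1 row each, with gene starts placed by distance from the first start of the group (horizontal axis, kb) and coloured by fold enrichment. Folds differ within most groups, as between 7.75 and its neighbours at 3.60 and 3.85 on chromosome 3.

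A peak shared by 2 genes is 1 measurement and cannot say which gene it belongs to. Of the 91 genes, 23 (25.3%) carried a peak that was also placed on another gene, beside 29.6% of all genes in the list. In 3 cases both genes were P450 genes on the same strand, with the summit upstream of one gene and either past the 3′ end of the other or inside it. The peak of LOC_Os01g52790 and LOC_Os01g52800 (fold 2.91) lay 68 bp upstream of the former and past the 3′ end of the latter, a gene model of 800 bp. The peak of LOC_Os06g43430 and LOC_Os06g43440 (fold 3.13) lay 974 bp upstream of the former and past the end of the latter. The peak of LOC_Os01g72260 and LOC_Os01g72270 (fold 2.26) lay 1709 bp upstream of the former and inside the latter, 38 bp before its end.

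The other 17 sharers had a partner of another kind. In 12 cases the partner ran in the opposite direction, away from the P450 gene, with the starts 295 to 3321 bp apart. In 12 of the 17 the summit was nearer to the start of the P450 gene. The shares over all shared peaks were not computed, so neither count can be read as high or low. LOC_Os11g04710 (fold 4.62) shared its peak with LOC_Os11g04720, described as the response regulator OsRR10, part of cytokinin signalling. That summit was 1889 bp upstream of the P450 gene and 1432 bp upstream of OsRR10. LOC_Os01g43844 (4.68) shared its peak with a retrotransposon gene, and the summit was nearer to the P450 start, at 370 bp. LOC_Os08g39694 (3.68) shared its peak with an expressed protein gene whose start was nearer, 232 bp before the summit. LOC_Os02g07680 (2.42) shared its peak with LOC_Os02g07670, described as URED, whose start was 94 bp from the summit. In 5 genes a further listed peak overlapped the window. In 1 of these, LOC_Os10g38120, it was the stronger (3.15, placed on LOC_Os10g38140, a glutathione S-transferase gene).

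Genes of known pathways were looked at through lists of 57 identifiers, written from general knowledge, with the name each was entered under. The deposited list does not pair these identifiers with names. Of the 57 genes, 21 had a peak, and all 21 were described there as cytochrome P450 genes. For 9 of the 21, the RefSeq gene table of the assembly ASM3414082v1 holds the name on the same chromosome. All 9 are in the brassinosteroid, gibberellin and abscisic acid lists. For the rest of the 21, LOC_Os03g55240 (CYP81A6) among them, the name was not found there and rests on general knowledge. The median fold of the 21 was 2.94 (2.10 to 7.75), beside 3.13 over all genes. One of the 21, LOC_Os03g55240, had a fold of at least 5. The 70 other members were in no list. How many gene models the deposited list was drawn from is not given in the sources used here, so the share of all genes with an entry is unknown. The list has 14709 genes, and the RefSeq table, a different annotation, has 39387 entries. The counts of listed genes with a peak, in all and by pathway, can therefore not be read as high or low, and a count of 0 in a short list says little. A listed gene with no entry is not shown to be unbound, since peaks placed on no gene were not analysed here.

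In the brassinosteroid list, the genes that make or inactivate these growth-promoting steroids, 5 of 10 had a peak. LOC_Os11g04710, entered as CYP90A3 of the synthesis pathway, had 32 fragments over 6.14 and a fold of 4.62, on the peak it shares with OsRR10. LOC_Os01g10040, entered as CYP90D2 (the D2 gene of the dwarf mutant, also in synthesis), had 27 fragments over 7.08 and a fold of 3.47 inside the gene, 827 bp downstream of the start. The remaining 3 were entered as CYP734A genes, whose enzymes inactivate brassinosteroids, and were described in the deposited list as 72A1. Of these, LOC_Os06g39880 (CYP734A4) was the strongest at 4.52, with 27 fragments and the summit 140 bp upstream. LOC_Os02g11020 (CYP734A2) and LOC_Os01g29150 (CYP734A6) both had a fold of 2.94, inside the gene at 2439 and 886 bp. The genes entered as CYP724B1, CYP90B2, CYP85A1, CYP90D3 and CYP90A4 had no entry.

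Genes of other hormones that had a peak had folds of 3.97 or less. In the abscisic acid list, 2 of 3 genes of the breakdown enzymes had a peak. LOC_Os02g47470 (entered as CYP707A5) had a fold of 3.97 with a summit 2535 bp upstream, outside the window, in a peak of 1582 bp. LOC_Os09g28390 (CYP707A7) had 3.07, inside the gene. In the gibberellin list it was 2 of 4. LOC_Os06g37364, entered as CYP701A6, an ent-kaurene oxidase of gibberellin synthesis, had 2.76 from 14 fragments. LOC_Os05g40384, entered as CYP714D1 (EUI1, which inactivates gibberellins), had 2.10 with a summit 2 bp from its start, and its −log10 q of 1.09 was short of a q of 0.05. None of 3 strigolactone or 2 cytokinin genes had an entry. In the oxylipin list, which leads to jasmonate and leaf aldehydes, 3 of 5 had a peak, with folds from 2.76 to 2.94: LOC_Os02g02000 (2.94), LOC_Os03g55800 (2.88) and LOC_Os02g12690 (2.76). The summit of LOC_Os03g55800 lay 29 bp from its start.

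The phenylpropanoid list holds hydroxylases on the way to lignin, the polymer of secondary walls named in the title of the study. The list does not hold LOC_Os05g25640, which was left out of the members, and was not checked for completeness. Of its 8 genes, 2 had a peak, both entered as CYP73A (cinnamate 4-hydroxylase) and lying near each other on chromosome 2, as 1 of the 12 groups. LOC_Os02g26770 had 31 fragments over 8.495 and a fold of 3.37, with the summit 142 bp upstream. LOC_Os02g26810 had 18 fragments over 6.14 and a fold of 2.66, 1390 bp upstream. The genes entered for the later hydroxylases, CYP98A (2 genes) and CYP84A (3 genes), had no entry. In the flavonoid list 3 of 4 had a peak: LOC_Os06g01250 (entered as CYP93G2, 3.86), LOC_Os04g01140 (entered as CYP93G1 and described as 93A2, 3.13) and LOC_Os10g17260 (entered as CYP75B3, 2.57). The summit of LOC_Os10g17260 was 68 bp upstream, on a peak shared with a retrotransposon gene.

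The carotenoid list holds 3 genes of the CYP97 family, which includes carotene hydroxylases, and all 3 had a peak with a low fold. LOC_Os02g07680 (entered as CYP97B4) had 2.42, LOC_Os10g39930 (entered as CYP97C2) 2.22 and LOC_Os02g57290 (entered as CYP97A4) 2.21. The deposited description of LOC_Os10g39930 is 97B2, which differs from the name it was entered under, and the RefSeq table did not hold any of the 3 entered names on the same chromosome. Their fragments numbered 22, 18 and 11, over backgrounds of 8.495, 7.55 and 4.44, so a high background goes with the low fold in the first 2. LOC_Os02g57290 had a −log10 q of 1.01, short of a q of 0.05. None of the 8 diterpenoid phytoalexin genes, whose products defend against fungi, had an entry. The same held for the 3 genes of growth and organ size and the 2 genes of the pollen wall and cuticle. In the list of other genes, LOC_Os03g55240 had an entry and LOC_Os12g16720 did not.

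**Figure D5:**
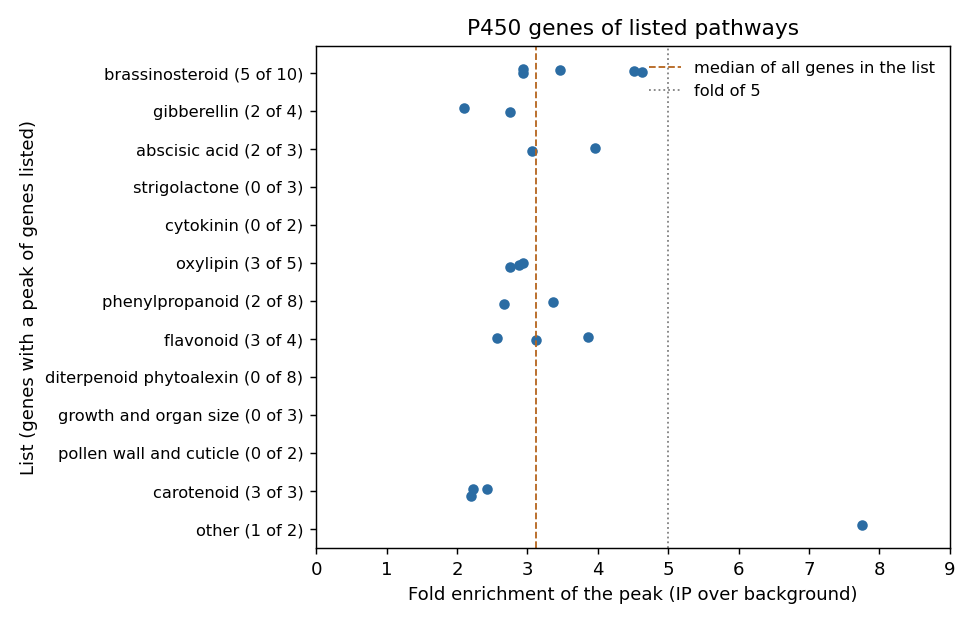
Fold enrichment (horizontal axis) of the listed P450 genes with a peak, 1 point per gene, by list (vertical axis, with the number of genes with a peak of the number listed), a dashed line at the median of all genes in the list and a dotted line at a fold of 5. Brassinosteroid genes reach 4.62, carotenoid genes stay at or below 2.42, and LOC_Os03g55240 is the single point past 5.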

How the data were processed

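The deposited file was 1 list of IP peaks joined to gene models. The submitters' processing notes name MACS2 2.2.7.1 and Bowtie2 2.4.2 beside Picard and SAMtools. Per the labels' protocols, material was fixed in 1% formaldehyde for 15 min and sheared to 300 to 500 bp. No genome build, calling threshold or library total is given in the sources used here. Coordinates count from 1. Deposited peak starts were shifted by 1 for this, and gene coordinates and peak ends are as deposited. Per the file headers, the fold is a linear ratio, and the deposited p and q values are −log10. The deposited score repeats the p. Each gene carried 1 peak overlapping 2000 bp to either side of its start. The authors called peaks on 1 IP, so replicates could not be compared, and the q values cover counting error only.

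Fragments were recovered from fold = (pileup + 1) / (background + 1) and the Poisson tail, with a tolerance on −log10 p of 0.0001 times its value plus 0.0002. On simulated data, 500 of 500 drawn peaks were recovered. They were drawn from the same formulas, which this cannot check, and the weakest P450 peaks lay below their range. Of the 12487 deposited peaks, 12440 had a single solution. Fragment medians over all genes used the 14647 of 14709 genes with a solution. Medians and counts were computed in Python 3.11.15 with pandas 2.3.3 and scipy 1.17.1, with no filter on low values. Named genes were all list members with a peak, the 20 of highest and 3 of lowest fold, groups of 4 or more, and genes at the fold of 5 or on a peak shared between P450 genes. Others were named after their values were seen. The members and lists were chosen with earlier results of these data known. None of the list's identifiers was found in the RefSeq table of 39387 entries.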

Additional observations from a re-analysis of the deposited data

How the results depend on the processing

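No paired analysis was possible because there was 1 IP and 1 input, and no replicate could be left out. The number of P450 genes was 91 without descriptions of reductases, pseudogenes, fragments or transposons, and 66 at a q of 0.01 or less. The median fold of 3.07 was 3.10 per distinct peak, 3.13 at a q of 0.05 or less and 3.49 for summits within 2 kb upstream. Its difference from all other genes was -0.056, and in fragments it was -3.0. The count of strong peaks was 20 at a fold of 4 and 1 at a fold of 6, where 27.6% and 7.54% of all genes passed. Summits within 1 kb upstream numbered 28, beside 40.0% of all genes. The comparison share near the start rose from 35.8% to 41.0% among genes of P450 length and 41.2% per distinct peak, both added after the data were seen. The share in the last 300 bp of the gene, looked at only then, was 2.16% of all genes and 1.13% at P450 length. Within 300 bp to either side of the end there were 11 P450 genes (12.1%) in place of 9, beside 4.17% of all genes. Groups held 28 genes at 25 kb and 35 at 100 kb. Peaks shared by window overlap touched 27 genes. For these counts no share over all genes was computed. At a median of 17 fragments, single folds are imprecise.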
